A study of Equus caballus with 8 samples.

Results

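NOX4, CYBA, SOD1, SOD2, SOD3, CAT, GPX3, GPX8, NQO1 and TXNRD1 encode proteins that make or remove reactive oxygen species. They were selected by gene symbol, and all 10 were among the 15266 named genes of the expression table. The data come from equine BM-MSCs, mesenchymal stem cells of the bone marrow that grow as stromal cells attached to plastic, here from the sternum of adult Thoroughbred or Thoroughbred-cross horses. Cells of 4 horses, labelled D, J, L and W, were each grown as 1 untreated and 1 TGF-β2-treated culture, which gave 4 untreated and 4 treated libraries. The treated cultures received 1 ng/ml recombinant human TGF-β2 from isolation to passage 3 or 4 according to the labels, whereas the methods describe the exposure as 3 passages. Cells of both groups were grown in low-glucose DMEM with fetal bovine serum and antibiotics, to which the methods add basic fibroblast growth factor. Which libraries were of passage 3 and which of passage 4, and the age of each horse, are not given in the sources used here.

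NADPH oxidases are membrane enzymes that pass electrons from NADPH to oxygen. NOX4 is the form found in many fibroblasts and other stromal cells, releases mainly hydrogen peroxide without an activating cytosolic subunit, and is known as a gene induced by TGF-β. It is held in the membrane together with CYBA (p22phox). Superoxide dismutases turn superoxide into hydrogen peroxide in the cytosol (SOD1), in mitochondria (SOD2) and outside the cell (SOD3). Catalase (CAT), glutathione peroxidases and peroxiredoxins remove the peroxide, and NQO1 and TXNRD1 are reductases whose genes are classical targets of the transcription factor NRF2 (NFE2L2).

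Values are normalized counts, that is, reads per gene divided by 1 size factor per library. They are not divided by transcript length, so levels are compared between libraries and not between genes. Between 39184554 and 57228675 reads were counted per library. Treated and untreated libraries were compared by limma on log2(normalized count + 1) with the horse as a block, over the 14907 genes that reached 10 normalized counts in 4 or more libraries. All 10 genes were tested. SOD3 passed the filter through the untreated libraries, since only 1 treated library reached 10. A gene is said to have risen or fallen at a Benjamini-Hochberg adjusted p under 0.05, and is called differentially expressed where its log2 fold change is also over 1 in size. Each change is of RNA from a whole culture, in which fewer cells of a type and less RNA per cell cannot be told apart.

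The untreated library of horse J stood apart. It held 708 genes at more than 2-fold above all other untreated libraries, against 104 to 285 in the others, and so results that rest on horse J are also given without this horse. The stromal markers ITGB1, CD44, THY1, ENG, NT5E and PDGFRB were present in every library, with a summed level of 161816 to 355467 normalized counts in untreated and 172849 to 271837 in treated libraries. Within this sum THY1 fell by 2.21 on the log2 scale in treated cells, PDGFRB by 0.71 and ENG by 0.42, ITGB1 rose by a log2 fold change of 0.91, and CD44 and NT5E did not pass. Of 8 leukocyte and phagocyte markers 7 were listed, with a summed level of 638 to 2999 in untreated and 449 to 869 in treated libraries. PTPRC (CD45) ranged from 1.74 to 109.7 normalized counts in untreated and from 1.19 to 23.0 in treated libraries. Of 4 endothelial markers CDH5 and KDR were listed, with sums of 7.10 to 26.3 in untreated and 30.0 to 55.7 in treated libraries. Among genes known to respond to TGF-β, ACTA2 rose with a log2 fold change of 2.27, TAGLN, SKIL, CTGF and TGFBI also rose, and SMAD7 had a limma adjusted p of 0.931.

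After TGF-β2 treatment NOX4 rose 4.26-fold, while CAT fell 2.59-fold, SOD2 5.25-fold and SOD3 20.9-fold. GPX8 rose 1.52-fold and TXNRD1 fell 1.76-fold. The changes of CYBA, SOD1, GPX3 and NQO1 did not pass the test. Of the 10 genes 6 therefore passed, 2 higher and 4 lower, where 30.9% of all tested genes passed (15.7% higher and 15.3% lower). Called differentially expressed were 4 of the 10, 1 higher and 3 lower, where 14.1% of all tested genes were called (6.83% higher and 7.31% lower). The groups did not overlap for 5 of the 10 genes (NOX4, SOD2, SOD3, CAT and GPX8), where this held for 27.8% of all tested genes. The median log2 fold change of the 10 genes was -0.70, and that of all tested genes 0.01. The 10 genes were chosen with earlier results of these data known, so their shares are a description and no test. Without horse J 7 genes passed and 5 were called, where 36.8% and 16.4% of all tested genes did. Without horse W NOX4, SOD3 and CAT passed, 3 of the 10, where 9.53% of all tested genes did.

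**Figure D1:**
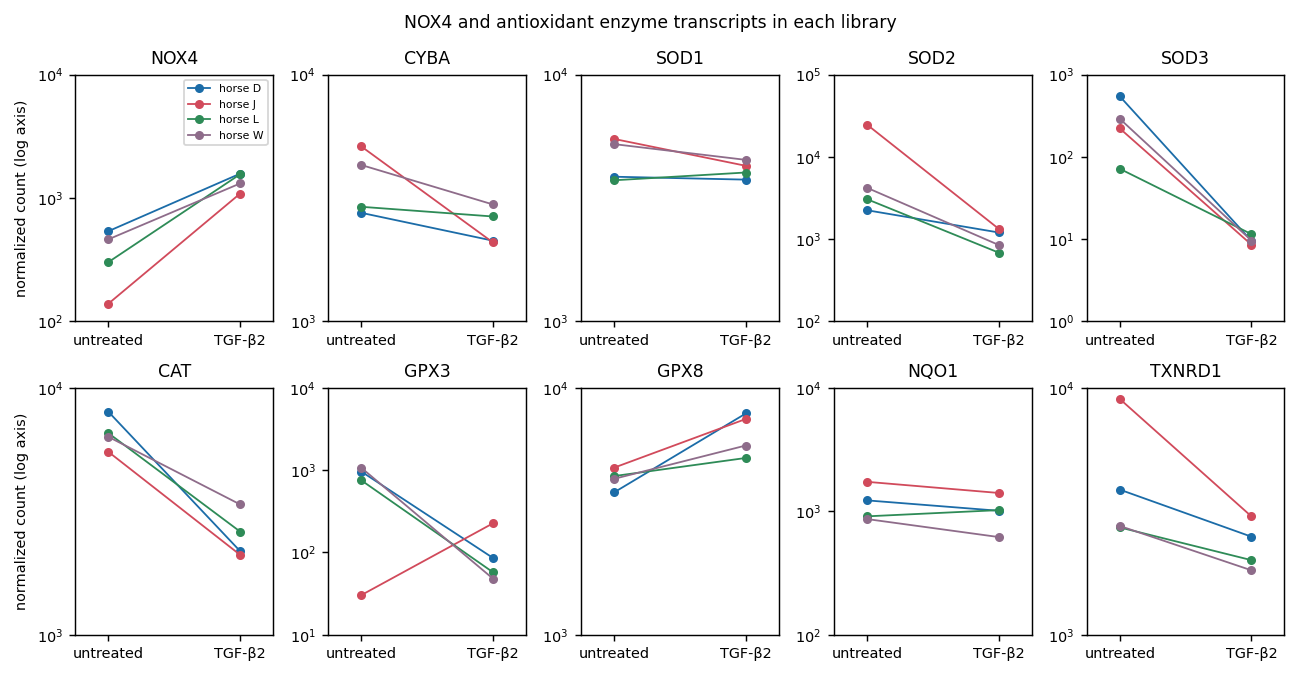
Normalized counts (y, log axis) of the 10 genes in untreated and TGF-β2-treated libraries (x), 1 panel a gene, with a line joining the 2 libraries of each horse. NOX4 and GPX8 rise and SOD2, SOD3 and CAT fall in all 4 horses without overlap of the groups, and GPX3 of horse J runs against the other horses, from 30.3 to 225.9.

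NOX4 was the only one of the 10 genes called higher. In untreated cells it had 539 normalized counts in horse D, 139 in J, 302 in L and 463 in W. In treated cells it had 1575, 1086, 1558 and 1312. Every treated library lay above every untreated one, and the horses, which differed by up to 3.86-fold without treatment, differed by up to 1.45-fold with it. The mean went from 361 ± 177 to 1382 ± 231 (SD, n = 4). The log2 fold change was 2.09 (standard error 0.27, 95% interval 1.42 to 2.76), with a limma adjusted p of 0.00571. Horse J, with the lowest untreated level, had the largest change, 2.95 on the log2 scale, and the others had 1.502 to 2.36. NOX4 passed with any single horse left out.

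CYBA, the membrane partner of NOX4, did not rise with it. It had 2754, 5115, 2914 and 4303 normalized counts in untreated libraries of horses D, J, L and W, and 2124, 2089, 2661 and 2977 in the treated ones. Every horse was lower after treatment, although the groups overlapped. The log2 fold change was -0.58 (95% interval -1.07 to -0.09), with a limma adjusted p of 0.0735, so that the change did not pass over all genes. Horse J had the largest difference, -1.29, and without this horse the log2 fold change was -0.35 and the limma adjusted p 0.0537. DESeq2 on the recovered reads gave an adjusted p of 0.0335 with the horse as a term and 0.0476 without it. Within each horse, the log2 ratio of NOX4 to CYBA increased between untreated and treated libraries by 1.92 to 4.24.

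The 5 tested genes with profiles most like that of NOX4, by the root mean square difference of log2 values over the 8 libraries with each gene centred on its own mean, were CADM4 (0.28), LOC102150901 (0.32), AZU1 (0.33), LOC111774221 (0.33) and TNC (0.34). LOC102150901 and AZU1 had few reads, with at most 32.2 and 31.0 normalized counts in any library. In CADM4, a cell adhesion gene, the untreated libraries held 32.3 to 120.1 and the treated ones 292 to 553 normalized counts. TNC (tenascin-C), a matrix glycoprotein, held 7053 to 34222 and 87230 to 157922. Likeness here is a description over 8 libraries that share the treatment contrast.

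Of the superoxide dismutases, the extracellular SOD3 had the largest fall of the 10 genes. Untreated cells of horses D, J, L and W had 544, 222, 71.6 and 290 normalized counts. Treated cells had 9.53, 8.56, 11.5 and 9.61, which came from 8 to 10 reads per library. The untreated levels ran over a 7.59-fold range, whereas the treated ones all lay near the lower end of what could be measured, with a 1.34-fold range. For SOD3 the log2 fold change was -4.39 (standard error 0.52, 95% interval -5.68 to -3.09), with a limma adjusted p of 0.00455. Horse L, with the lowest untreated level, had the smallest change, -2.54, and horse D, with the highest, the largest, -5.69. SOD3 passed with any single horse left out, with log2 fold changes from -5.00 to -3.95.

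SOD2, the mitochondrial enzyme, had 2247, 24676, 3063 and 4213 normalized counts in untreated cells of horses D, J, L and W. In treated cells it had 1205, 1337, 686 and 851. The untreated library of horse J was far above all others, but the groups did not overlap with or without it. The mean went from 8549.6 ± 10781 to 1019.9 ± 303 (SD, n = 4), and the log2 fold change was -2.39 (standard error 0.50, 95% interval -3.64 to -1.14), with a limma adjusted p of 0.0206. SOD2 fell by 0.90 on the log2 scale in horse D, 2.16 in L and 2.31 in W, and by 4.20 in J. Without horse J the log2 fold change was -1.79 and the limma adjusted p 0.00963. Without horse D, L or W, where J remained, the limma adjusted p was 0.0319, 0.0568 and 0.0910. SOD2 thus passed without D but not without L or W. The summed leukocyte and phagocyte markers were also highest in the untreated library of horse J, at 2999 against 638 to 1585 in the other untreated libraries, of which CD68 made 2437. Single markers of the list differed in this. Untreated NCF1 was also highest in horse J, at 298. Untreated CYBB was lowest in horse J, at 27.6 against 29.6 to 429 in the others. The part of leukocytes and phagocytes in the level of SOD2 was not tested.

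The cytosolic SOD1 differed little between groups. It had 3730.5 to 5485 normalized counts in untreated and 3753 to 4512 in treated libraries. The log2 fold change was -0.13, with a 95% interval of -0.38 to 0.13, and the limma adjusted p was 0.381. Of the 4 horses 3 were lower and L was higher. At these levels, with at least 3151 reads in each library, the interval comes from how far the change differed between horses. It covers changes of up to 1.30-fold lower and 1.09-fold higher.

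Catalase, the peroxisomal enzyme that splits hydrogen peroxide, had 7998, 5504, 6553 and 6331 normalized counts in untreated cells of horses D, J, L and W. Treated cells had 2181, 2107, 2617 and 3371. The highest treated library lay well below the lowest untreated one. CAT varied by 1.45-fold between untreated and by 1.60-fold between treated libraries, the latter spread coming mainly from horse W. For CAT the log2 fold change was -1.37 (standard error 0.16, 95% interval -1.77 to -0.97), with a limma adjusted p of 0.00442. The change in single horses ran from -1.87 in D to -0.91 in W, and CAT passed with any single horse left out.

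GPX3, a secreted glutathione peroxidase, changed in opposite directions in different horses. Horses D, L and W had 962, 753 and 1069 normalized counts without treatment and 85.8, 57.5 and 48.1 with it. Horse J had 30.3 without treatment and 225.9 with it. The log2 changes were thus -3.47, -3.69 and -4.45 in D, L and W and 2.86 in J. Over all 4 horses the log2 fold change was -2.19 with a 95% interval of -5.29 to 0.91, and the limma adjusted p was 0.230. Without horse J it was -3.87 (95% interval -4.45 to -3.29), with a limma adjusted p of 8.70e-04. DESeq2 on the recovered reads passed GPX3 with all 4 horses, with an adjusted p of 0.0387 with the horse as a term and 0.00492 without it. Each horse gave 1 culture per group, so a difference between horses cannot be told apart from one between single cultures.

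GPX8 is a membrane-bound peroxidase of the endoplasmic reticulum, where collagens and other secreted proteins are folded. It had 3772, 4750, 4392 and 4279.5 normalized counts in untreated cells of horses D, J, L and W and 7872, 7479, 5200 and 5840.01 in treated ones. The groups did not overlap, although the lowest treated library was close to the highest untreated one. GPX8 rose by a log2 fold change of 0.60 (standard error 0.15, 95% interval 0.24 to 0.96), with a limma adjusted p of 0.0303. The rise was 1.06 in horse D and 0.65, 0.24 and 0.45 in J, L and W. With all libraries brought to one total of reads, a scaling that put the median of all genes at -0.30, the log2 fold change of GPX8 was 0.29 and the limma adjusted p 0.192. Without horse D or horse W its limma adjusted p was 0.0896 and 0.0956.

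TXNRD1, the cytosolic thioredoxin reductase and a selenoprotein, had 3871, 9016, 2721 and 2759 normalized counts in untreated cells of horses D, J, L and W. In treated cells it had 2495, 3015, 2005 and 1824. Each horse was lower after treatment, but the groups overlapped because the horses differed in level. For TXNRD1 this gave a log2 fold change of -0.81 (standard error 0.20, 95% interval -1.32 to -0.31), with a limma adjusted p of 0.0326, and 0.156 without the horse as a block. Horse J had a change of -1.58 and the others of -0.63 to -0.44. Without horse J it fell by 0.56 (limma adjusted p 0.00853), while without D, L or W, where J remained, it was 0.0988, 0.0519 and 0.100.

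NQO1, the quinone reductase, had 865 to 1733 normalized counts in untreated and 619 to 1408 in treated libraries. Horse J was highest in both groups and horse W lowest. The log2 fold change was -0.22 with a 95% interval of -0.55 to 0.10, and the limma adjusted p was 0.237. NQO1 was lower in horses D, J and W and higher in L. With all libraries brought to one total of reads, NQO1, SOD1 and CYBA passed as lower, with limma adjusted p of 0.0238, 0.0180 and 0.0135. Their log2 fold changes were then -0.54, -0.44 and -0.89, beside -0.30 for the median gene.

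**Figure D2:**
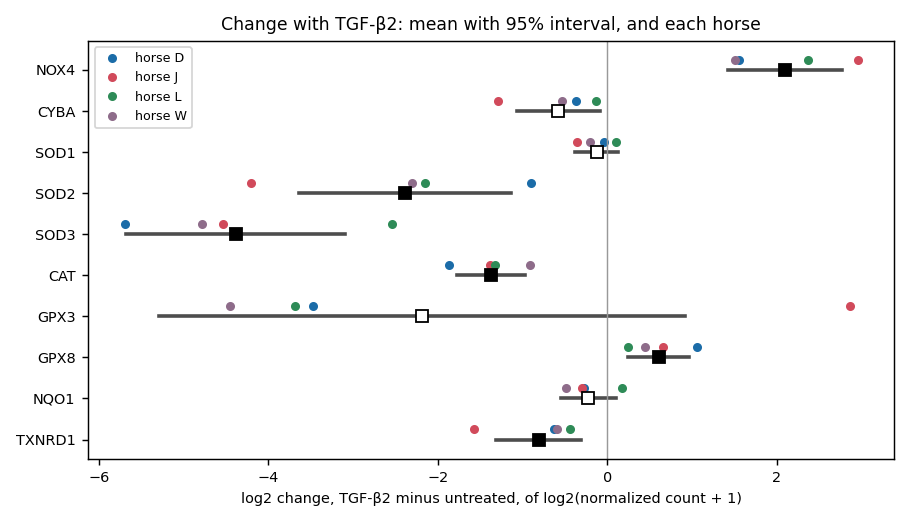
Log2 change with TGF-β2 (x) of each gene (y), with the mean over 4 horses as a square, its 95% interval from limma as a line and the change in each horse as a coloured point. Filled squares have an adjusted p under 0.05. NOX4 and GPX8 lie above 0, SOD2, SOD3, CAT and TXNRD1 below it, and horse J lies at 2.86 for GPX3.

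**Figure D3:**
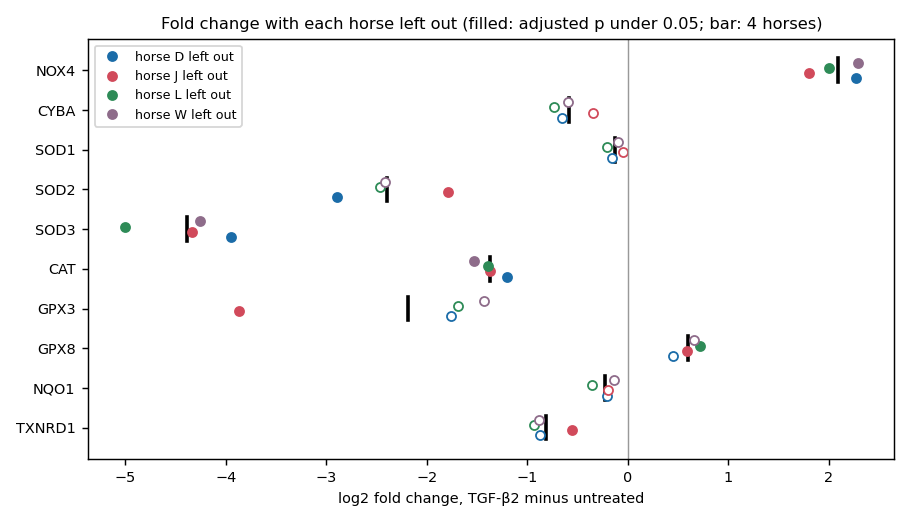
Log2 fold change (x) of each gene (y) with 4 horses (bar) and with each horse left out in turn (points, filled where the adjusted p is under 0.05). NOX4, SOD3 and CAT are filled throughout, and GPX3 is filled only without horse J, at -3.87.

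The other genes of these pathways were taken from 6 lists by role, with 81 tested genes besides the 10 above. Of these 13 rose, 23 fell and 45 did not pass, a share of 44.4% against 30.9% of all tested genes. Their median log2 fold change was -0.17. The lists too were chosen with earlier results of these data known, which can by itself raise the share that passed. Of the 36 that passed, 30 are named below by size of change. Of the 30, 8 did not pass without the horse as a block: CYBB, NCF1, RAC2, PRDX4, TXN, MSRB3, GCLC and CHAC1, with limma adjusted p of 0.417, 0.164, 0.242, 0.139, 0.209, 0.183, 0.0566 and 0.0691. With any single horse left out 14 of the 30 still passed (CYBB, TXNIP, GLRX2, MSRB1, GGT5, GSTK1, GSTA4, NFE2L2, BACH1, EPHX1, NQO2, FTL, SQSTM1 and AKR1B1), and the other 16 missed the threshold without horse W, 14 of them also without D.

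Among 9 other tested NADPH oxidase genes, none rose and 4 fell. CYBB, the phagocyte oxidase NOX2, had 29.6, 27.6, 429 and 228 normalized counts in untreated cells of horses D, J, L and W and 8.34, 10.7, 179 and 66.1 in treated ones. NCF1 and RAC2, cytosolic partners of the phagocyte oxidase, had log2 fold changes of -1.18 and -2.47. RAC2 had few reads, at most 25 in a treated library, and its change was -4.60 in horse J and -1.9985 to -1.45 in the others. It had 1.74 normalized counts untreated and 0 treated in horse D, and 75.4 and 2.14 in horse J. The size of the change in D and J thus depended in part on the pseudocount of 1. Without horse J the log2 fold change of RAC2 was -1.76 (limma adjusted p 0.0144), and without D, L or W the limma adjusted p was 0.0653, 0.0626 and 0.0973. These 3 genes are typical of leukocytes, and the level of CYBB differed between horses more than between groups. The summed leukocyte and phagocyte markers, a sum that itself includes CYBB and NCF1, were lower after treatment in every horse. Of the 7 listed markers 3 fell, with CYBB and NCF1 among them and ITGB2 the other. The sum is therefore in part made of the genes it is set beside. The part of such cells in the fall of CYBB, NCF1 and RAC2 was not tested. POLDIP2, a protein that binds CYBA and is known to raise NOX4 activity, fell by 0.33 on the log2 scale (limma adjusted p 0.0220). RAC1 had a log2 fold change of -0.02.

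Of 4 genes of copper supply to the dismutases, SLC31A1, the copper importer, rose by a log2 fold change of 0.68, and CCS, ATOX1 and ATP7A did not pass. Of 9 other peroxidases 2 rose, 1 fell and 6 did not pass. GPX7, which like GPX8 works in the endoplasmic reticulum, had 1900.07 ± 596 normalized counts in untreated and 3877 ± 465 in treated libraries (SD, n = 4). GPX7 rose by a log2 fold change of 1.08, with a limma adjusted p of 0.0259. Its change was 1.97 in horse J and 0.46 to 1.09 in the others. Without horse J its log2 fold change was 0.78 (limma adjusted p 0.0117). PRDX4, the peroxiredoxin of the same compartment, rose by a log2 fold change of 0.34 (limma adjusted p 0.0318). With all libraries brought to one total of reads, GPX7 and PRDX4 did not pass. Their log2 fold changes were then 0.77 and 0.03, with limma adjusted p of 0.0640 and 0.840. PRDX6, a cytosolic peroxiredoxin, fell by 0.76 on the log2 scale. GPX1 and GPX4 had log2 fold changes of -0.25 and -0.21, with limma adjusted p of 0.0827 and 0.115.

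In the thioredoxin and glutaredoxin system, 4 of 17 other genes rose, 3 fell and 10 did not pass. TXNIP, which binds thioredoxin and inhibits it, fell from 4802, 4068, 4595 and 4712 normalized counts in untreated cells of horses D, J, L and W to 42.9, 171, 42.5 and 20.4 in treated ones. Its log2 fold change of -6.46 (limma adjusted p 0.00180) was the largest in size of all genes on the 6 lists. TXN, thioredoxin itself, fell by 0.53 on the log2 scale, so that reductase, substrate and inhibitor were all lower in treated cells. GLRX2, a mitochondrial glutaredoxin, and MSRB1, a selenoprotein that repairs oxidized methionine, rose with log2 fold changes of 1.19 and 1.22. MSRB3 rose by a log2 fold change of 0.36, and SESN1 (sestrin 1) fell by 0.91.

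Of 17 genes of glutathione metabolism 4 rose, 6 fell and 7 did not pass. SLC7A11 and SLC3A2, the 2 chains of the cystine importer, rose with log2 fold changes of 2.18 and 1.502. CHAC1, which degrades glutathione, had 10.4, 12.8, 1577 and 326 normalized counts in untreated cells of horses D, J, L and W and 1253, 1495, 2750 and 2933 in treated ones. It rose in all horses, by 0.80 in L to 6.78 in D on the log2 scale, with a limma adjusted p of 0.0315. Its log2 fold change ran from 3.58 to 5.57 with single horses left out, and the limma adjusted p was 0.119, 0.0523 and 0.0972 without D, J and W. GCLC, the catalytic subunit of the first enzyme of glutathione synthesis, fell by 0.92 on the log2 scale, while its modifier GCLM had a log2 fold change of 0.04 (limma adjusted p 0.921). GGT5, a surface gamma-glutamyltransferase, fell to 4.23 ± 2.86 normalized counts in treated libraries, against 128 ± 56.5 in untreated ones (SD, n = 4). It passed the filter on low values through the untreated libraries, since the treated ones held 1 to 6 reads. The transferases GSTK1 and GSTZ1 fell by 1.71 and 0.86 on the log2 scale, and GSTA4 rose by a log2 fold change of 0.83.

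Of 25 other genes of NRF2 regulation and of NADPH and iron handling 2 rose, 9 fell and 14 did not pass. NFE2L2 (NRF2) itself had 5982 ± 192 normalized counts in untreated and 3651 ± 106 in treated libraries (SD, n = 4), and fell by 0.71 on the log2 scale (limma adjusted p 0.00374). BACH1, a repressor that competes with NRF2, fell by 1.13. KEAP1, which targets NRF2 for degradation, had a log2 fold change of -0.14 (limma adjusted p 0.266). The epoxide hydrolase EPHX1 had 12969.5, 1981, 9639 and 15704 normalized counts in untreated cells of horses D, J, L and W and 106, 134, 108 and 141 in treated ones, a log2 fold change of -6.01. NQO2, a relative of NQO1, fell by 1.64 on the log2 scale, FTL (ferritin light chain) by 1.73 and SQSTM1 (p62) by 1.19. FTH1, the ferritin heavy chain, had a log2 fold change of 0.10 (limma adjusted p 0.371), and HMOX1 one of -0.77 (limma adjusted p 0.0690). AKR1B1, an aldose reductase, rose by a log2 fold change of 0.82. MAFK rose by a log2 fold change of 0.77, higher in 3 of 4 horses and just inside the threshold with a limma adjusted p of 0.04997.

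**Figure D4:**
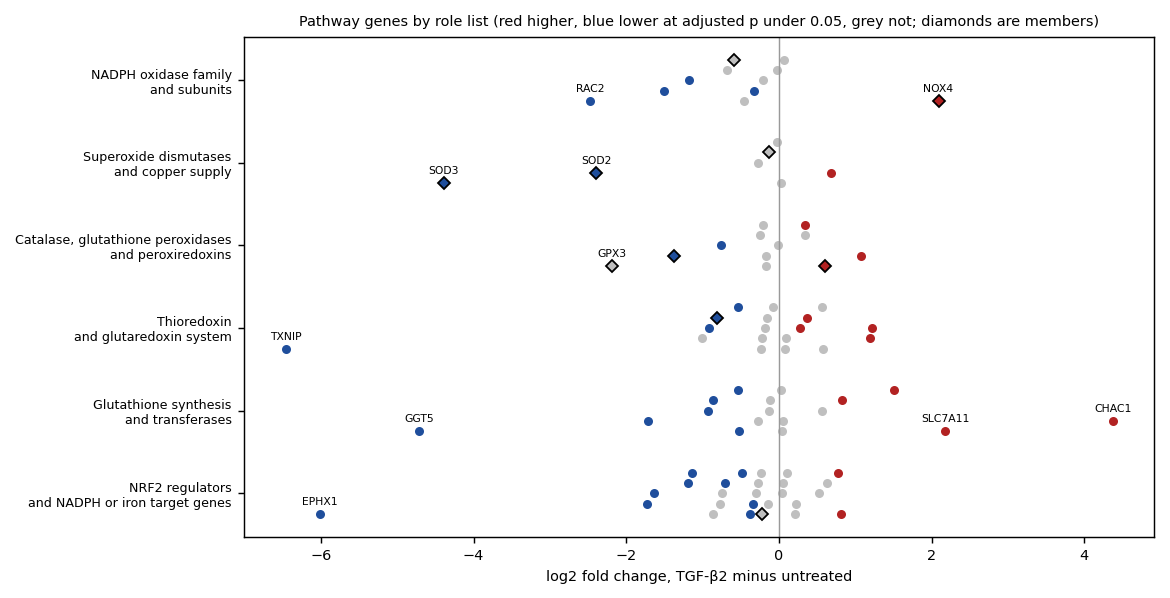
Log2 fold change with TGF-β2 (x) of all tested genes on 6 lists by role (y), red where higher and blue where lower at an adjusted p under 0.05 and grey otherwise, with diamonds for the 10 selected genes. SOD3, TXNIP, GGT5 and EPHX1 lie below -4 and CHAC1 above 4, and the other genes lie between.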

How the data were processed

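The 8 libraries were made from poly(A)-selected RNA and read from both ends. Reads were trimmed by the authors (Trimmomatic 0.36), aligned to EquCab 3.0 (STAR 2.5.2b), counted as unique hits per gene (featureCounts, Subread 1.5.2) and deposited as normalized counts, a never-negative signal of reads divided by a DESeq2 size factor per library. Unique counting can miss reads of genes with close copies. Dividing each value by what 1 read is worth in its library gave whole reads per gene (100% of values, tolerance 0.001 read). A row without a gene name was left out (at most 0.0531% of reads). Horses paired the libraries by label, and deviations from group means correlated by 0.386 to 0.609 within horses and -0.400 to 0.116 between them. Deviations from a group mean cancel out over the horses, so positive values within horses push those between horses down. The range between horses is thus not separate evidence of the pairing. The model of limma 3.58.1 in R 4.3.3 (trend, pseudocount 1) had a horse term, because the comparison is by horse, and the methods name none. Alternatives were no horse term, DESeq2 1.42.0 and edgeR 4.0.16 on recovered reads, other pseudocounts, filters, scalings and thresholds, and each horse left out. On simulated counts (15087 genes), limma with the horse recovered 196 of 200 genes that had been shifted 2 log2 units, with 4 other calls. DESeq2 with the horse made 20 other calls there. The simulation shifted far fewer genes than passed in the data and used the same noise setting for all genes. It had no outlying library and no difference between horses in response. Genes and lists were chosen with earlier results of these data known. Beside the 10 genes, all list genes called and up to 3 further passing genes per list with the largest changes are named, and a few list genes that did not pass (RAC1, CCS, ATOX1, ATP7A, GPX1, GPX4, GCLM, KEAP1, FTH1, HMOX1) were added after their values were seen. A gene of the lists is not reported here.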

Additional observations from a re-analysis of the deposited data

Results flagged for a closer look

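Dixon's test was applied to 90 sets of 4 values. These were levels per group of the 10 genes and of 30 pathway genes, and log2 changes of the 10 genes by horse. In 10 sets a value lay so far from the other 3 that the gap exceeded the 95% critical value. Levels entered as normalized counts and not as log2 values, which makes high values stand out more. The critical value assumes normal values, and the sets share the same 8 libraries. The number flagged was therefore not set against chance. The untreated library of horse J gave 3 of the flagged values. Its 24676 normalized counts of SOD2 compare with 2247 to 4213 in the other untreated libraries. It also had the highest untreated NCF1, 298 against 78.2 to 98.3, and the lowest untreated NFE2L2, 5695 against 6051 to 6094. In the treated library of horse J, NCF1 stood at 133 against 33.6 to 47.6 and TXNIP at 171 against 20.4 to 42.9. The log2 change of GPX3 in horse J, 2.86, lay far above the -4.45 to -3.47 of the others, and that of TXNRD1, -1.58, below their -0.63 to -0.44. Horse D had the highest untreated BACH1 (4019 against 2603 to 2793) and SESN1 (1033 against 696 to 718), and horse L the highest untreated SLC3A2 (5765 against 1485 to 2189).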

How the results depend on the processing

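All 10 genes kept their direction under 17 alternatives, and NOX4, SOD3 and CAT also passed under each of them. Where only the limma horse term, the filter, the trend or the threshold was altered, the fold change was the same by construction. Those alternatives could not change a direction. Of the 170 values, 147 stayed on the same side of the threshold, 15 no longer passed and 8 passed only under the alternative. With an adjusted p under 0.01, 3 of the 10 genes, 15 of the pathway genes and 1116 of all genes passed their thresholds, against 6, 36 and 2108. With each horse left out, the genes called of the 10 ran from 3 to 5, those passing from 3 (without W) to 7 (without J), the pathway genes passing from 14 (without W, and 16 without D) to 41, and all genes called from 1080 (without W, and 1173 without D) to 2442. Without the horse as a replicate block 1709 of all genes were called, and besides TXNRD1 and the 8 pathway genes named above no call of the 10 genes or of the 30 pathway genes was lost. SOD2 did not pass without horse L or W, and GPX8 and TXNRD1 also missed the threshold without an intensity trend, with limma adjusted p of 0.0539 and 0.0550. TXNRD1 had an adjusted p of 0.0562 by DESeq2 without a horse term. Under total scaling 697 genes were called higher and 1832 lower, against 1018 and 1090. For 30 pathway genes, 422 of 509 values stayed on their side of the threshold, 87 no longer passed and 0 reversed. With 4 horses, small changes such as those of SOD1 and NQO1 were not detectable beyond the intervals given. The causes of these differences were not tested.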

Other observations

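These groups were chosen after their values were seen and are given as counts and values. Of all tested genes 30.9% passed, 15.7% higher and 15.3% lower. Of 10 genes of disulfide formation in the endoplasmic reticulum, the compartment of GPX7, GPX8 and PRDX4, 7 rose, 0 fell and 3 did not pass, with a median log2 fold change of 0.72. PDIA4, a protein disulfide isomerase, rose by a log2 fold change of 1.02, and ERO1B, an oxidase that makes hydrogen peroxide while it reoxidizes these isomerases, by 0.74. The related ERO1A had 0.73, with a limma adjusted p of 0.0507. Of 21 genes of peroxisome assembly and peroxisomal fatty acid breakdown, the site of catalase, 2 rose, 7 fell and 12 did not pass, with a median of -0.18. PEX5, the receptor that carries enzymes such as catalase into peroxisomes, fell by 1.01 on the log2 scale. Of 10 other tested oxidases that make hydrogen peroxide, 1 rose and 4 fell. AOX1 (aldehyde oxidase) fell from 573, 3181, 154 and 1605 normalized counts in untreated cells of horses D, J, L and W to 13.1, 57.8, 17.2 and 13.2 in treated ones. MAOB (monoamine oxidase B) rose from 13.1, 0.673, 19.8 and 32.5 to 223, 225, 60.9 and 207. Of 12 other selenoproteins and selenium factors 3 rose and 2 fell. SELENOM, a selenoprotein of the endoplasmic reticulum, rose by a log2 fold change of 1.39 and SELENOS by 0.84. SELENOP, which carries selenium outside the cell, had 20275, 2146, 11953 and 14486 normalized counts in untreated cells of horses D, J, L and W, lowest in J, as GPX3 was. Low values were common in that library, where 761 tested genes lay more than 2-fold below all other untreated libraries.

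The untreated library of horse J, in which SOD2 and TXNRD1 were highest, also held the highest untreated level of 16 of 17 listed genes known to respond to NF-κB, PTGS2 being the exception. This list too was chosen after its values were seen. The share of all genes that were highest in this library was not counted, and 708 tested genes lay more than 2-fold above all other untreated libraries there. A link between the listed genes and the levels of SOD2 and TXNRD1 was not tested. ICAM1 had 25616 normalized counts there and 1387 to 3647 in the other untreated libraries. For NFKBIA, the inhibitor of NF-κB, the values were 2317 and 421 to 798, for TNFAIP3 729.8 and 6.96 to 32.5, for BIRC3 4496 and 236 to 848, and for IL6 195 and 13.9 to 22.3. In the treated library of horse J these genes had 2494, 288, 13.9, 172 and 3.21 normalized counts. All 5 then lay within or below the range of the other treated libraries, and the treated library of horse J was highest for 4 of the 17 genes (CCL2, CXCL1, CXCL8 and PTGS2).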
